A study of Mus musculus with 6 samples.

Results

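The 37 genes described here encode proteins of cytoplasmic RNA granules and of mRNA decay, out of 19057 genes that carry a probe on the array. They were chosen by name, as core members of processing bodies, stress granules, germ granules and transport granules and of the decapping, deadenylation and microRNA machinery, and each probe annotated to a listed symbol or to its older name was used. Their levels were compared between 3 lens samples of Tdrd7 heterozygous mice and 3 of Tdrd7 null mice, all at postnatal day 30 and on a mixed background of the strains C57BL/6J and C3A.Blia, and no treatment is given. The control lenses therefore carry 1 null allele themselves, and no wild-type lens is among the samples. The labels do not say where the allele is disrupted, nor whether each sample is its own animal, and every p-value therefore measures a spread among these samples that may be technical. Each sample was hybridised to 1 Illumina bead array, and 3 arrays per group limit the precision of every difference given here.

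Processing bodies are cytoplasmic bodies in which translationally repressed mRNAs meet the enzymes that remove their caps and degrade them, while stress granules collect mRNAs stalled at the start of translation. Messenger RNA is usually degraded by shortening of its poly(A) tail, then removal of the cap, then digestion from the 5′ end. Tdrd7 encodes a Tudor domain protein of RNA granules in lens fibre cells and in germ cells, and in the lens its granules are known to lie close to, and in part to overlap, processing bodies and granules that hold the double-stranded RNA-binding protein STAU1. Fibre cells lose their nuclei as they mature, after which their proteins can be renewed only from mRNAs already made.

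Among the 37 genes, Caprin2 is the one whose difference between the groups stood furthest from 0, and its promoter is shown for that reason. The 250 bases before the start of Caprin2 (RefSeq, GRCm38.p6, chr6:148896238-148896487, minus strand, 5′ to 3′) are given in lower case, with each match to the letters ACCGGAA in capitals. GGAA is the core of the sites bound by transcription factors of the ETS family, which is background and not a measurement of binding here.
Caprin2: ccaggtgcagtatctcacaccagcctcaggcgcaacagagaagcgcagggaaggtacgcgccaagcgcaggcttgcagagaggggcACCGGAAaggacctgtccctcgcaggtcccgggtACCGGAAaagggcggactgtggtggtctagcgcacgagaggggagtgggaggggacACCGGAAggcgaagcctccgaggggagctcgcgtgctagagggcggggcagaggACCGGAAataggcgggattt
The window held 4 matches, all on the strand of the gene, and none of the reverse complement TTCCGGT. These letters were picked after the sequence had been read, so the shares that follow cannot be read as a measure of rarity. Of the 32851 promoter windows of the same length, 2.89% held at least 1 match on either strand and 0.00304% held at least 4, which was that of Caprin2 alone. Among the 29 members with a promoter in the table, 2 held a match, Caprin2 with 4 and Ybx1 with 1. A match is a description of the letters and not a site, and no reading of the expression values is drawn from it.

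Detection differed between arrays. A probe was taken as measured when its detection p was under 0.05 on at least 3 of the 6 arrays, which 14902 of 45281 probes reached. The arrays detected 12655 to 16204 probes each, with heterozygous array 2 lowest and null array 5 highest, and these were also the arrays that stood furthest from the rest (best correlation with another array 0.946 and 0.962, against at least 0.981 for the other 4). Values below are log2 intensities after background correction and quantile normalization, differences are null minus heterozygous on that scale, and arrays 1 to 3 are heterozygous and 4 to 6 null. The Tdrd7 probe read 14.06, 13.74 and 14.17 on the heterozygous and 10.49, 9.65 and 10.18 on the null arrays, which follows the sample labels (difference -3.88 ± 0.26 SE, limma adjusted p = 0.00139, and 0.12 where all 45281 probes were tested).

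Most of the granule and decay genes were measured in lens RNA. The 37 genes had 93 probes, of which 60 were measured, and 31 genes had at least 1 such probe. A probe detected on all 6 arrays was present for 27 of the 37 genes. The 6 genes with no measured probe were as follows. Edc3, an enhancer of decapping, Xrn1, the exonuclease that digests decapped mRNA, Ago1, an Argonaute protein, and Piwil2 and Mael, proteins of the piRNA pathway, had 1 probe each, detected on 0 of 6 arrays. Fmr1, the fragile X RNA-binding protein, had 4 probes, none detected on more than 1 array. A probe below background here gives only a bound and does not show that the gene is silent.

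No granule or decay gene passed the test between the groups. Of the 31 measured genes, each taken by its brightest measured probe, 15 were higher and 16 lower in null lenses (51.8% of all probes were higher), and 0 passed the threshold of 0.05 in limma after adjustment over all probes by the method of Benjamini and Hochberg, against 0.174% of all probes tested. At an unadjusted p under 0.05 there was 1 gene, Caprin2, against 8.70% of all probes. With the labels' replicate number as a block, on the authors' series matrix values, there were 6 (Ddx6, Caprin1, Caprin2, Pabpc1, Ybx1 and Stau2) against 14.2% of all probes, with array weights there were 3 (2267 of 14902 probes), and in both fits 0 passed after adjustment. Over all alternatives this count ran from 0 to 6. The median difference of the 31 genes was -0.03 and that of all probes 0.01, and the median size of a difference, without its sign, was 0.241 and 0.209. With a common median per array instead of quantile normalization, a setting called median scaling below, the median of all probes moved to 0.28, and 19 of the 31 genes lay above that median and 12 below it. Values after median scaling are read below against this shifted median and not against 0.

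For 26 of the 31 genes the 95% interval of the difference lay wholly within 1 on the log2 scale, that is within a 2-fold change either way, as it did for 74.8% of all probes. The intervals of Dcp1a, Tia1, Caprin2, Pabpc1 and Piwil1 reached further. The intervals, which are not adjusted for the number of probes, extended from 0.433 to 0.899 to each side of the difference. Smaller changes were not detectable with these arrays. Larger ones did not always pass after adjustment over all probes, as with Caprin2 at -0.88 (limma adjusted p = 0.46). In whole-lens RNA, fewer cells of a type and less RNA per cell cannot be told apart, and this holds for every level and difference given.

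**Figure D1:**
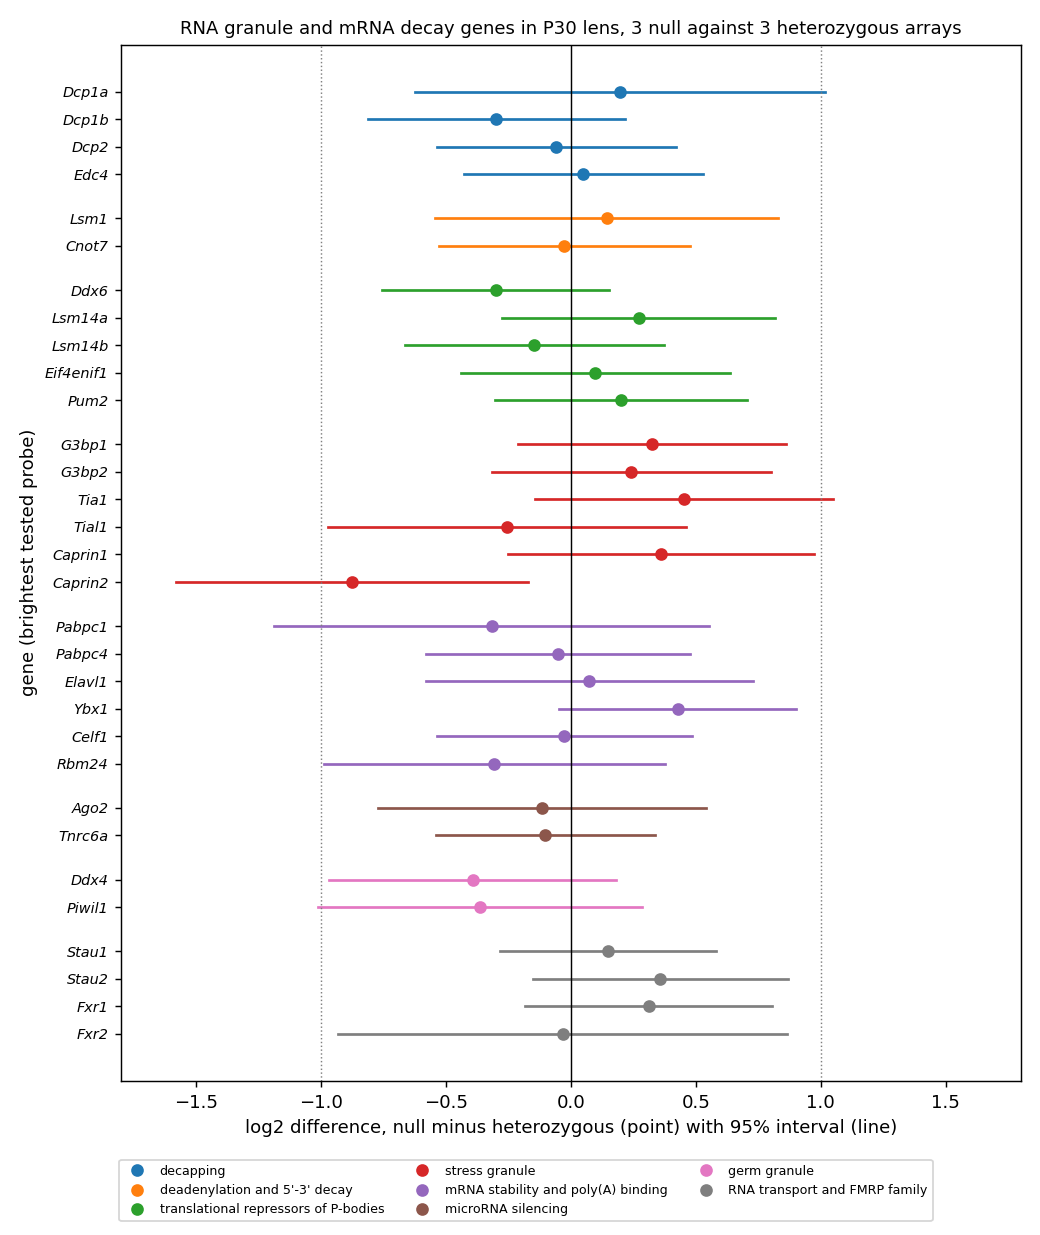
Difference between null and heterozygous lenses on the log2 scale (horizontal axis, point) with its 95% interval (line) for the 31 measured genes, ordered and coloured by role, with dotted lines at -1 and 1. The point of Caprin2 lies at -0.88, while the other 30 lie between -0.39 and 0.45.

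Caprin2 had the largest difference of the 31 genes. It encodes an RNA-binding protein that rises as fibre cells differentiate, and loss of it in the mouse lens is known to disturb fibre cells and the separation of lens from cornea. Its brighter measured probe read 8.37, 8.49 and 8.28 on arrays 1 to 3 (heterozygous) and 8.16, 6.86 and 7.50 on arrays 4 to 6 (null). The groups did not overlap, the null arrays being lower, but null array 4 lay close to the heterozygous values and null array 5 far below. The second probe read 8.04, 8.10 and 8.11 on the heterozygous and 7.72, 6.37 and 7.23 on the null arrays, with the null arrays in the same order. The means of the brighter probe were 8.38 ± 0.10 (SD, n = 3) and 7.50 ± 0.65 (n = 3), a 1.84-fold lower level in null lenses. Neither probe passed, at -0.88 ± 0.31 (SE, 95% interval -1.58 to -0.17, limma adjusted p = 0.46) and -0.98 ± 0.32 (-1.70 to -0.26, adjusted p = 0.398). The remaining Caprin2 probe was detected on 0 of 6 arrays.

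The size of the Caprin2 difference rested in part on single null arrays. On the brighter probe it was -0.56 without null array 5 (limma adjusted p = 0.796) and -1.19 without null array 4 (0.207). After median scaling it was -0.43, where the median of all probes was 0.28. Over the 15 alternatives the adjusted p of the brighter probe lay between 0.207 and 0.796. That of the second probe was 0.164 with array weights, 0.191 with the replicate block and 0.726 after median scaling. Leucocyte and macrophage markers moved with it. Of 16 such markers 10 were measured, 9 of them higher in null lenses, and 5 of the 10 were detected on no heterozygous array, so that they were measured only through the null arrays. Their summed linear level ran from 251.4 to 286.4 on the heterozygous arrays and was 522.6, 5552 and 1147 on null arrays 4, 5 and 6, and Ptprc and Itgam were detected nowhere. Caprin2 was thus lowest on the null array where these markers were highest, and next lowest where they were next. It was nearest to the heterozygous arrays where they were least raised. This order of the null arrays was not particular to Caprin2, and Pabpc1, Tial1, Dcp1b and Fxr2 among others followed it. Null array 5 was the lowest null array for 15 of the 31 genes, against 40.4% of all probes, and the highest for 7, against 34.9%. The part of the leucocyte and macrophage markers in the Caprin2 difference was not tested. Of 14 lens fibre markers 11 were measured, 2 higher and 9 lower in null lenses, and 0 passed. Birc7, an inhibitor of apoptosis, differed most, by -0.49 (limma adjusted p = 0.566). Their summed levels ran from 306600 to 317500 on heterozygous and from 292400 to 312300 on null arrays, sums that the brightest markers, crystallins and Mip among them, dominate.

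**Figure D2:**
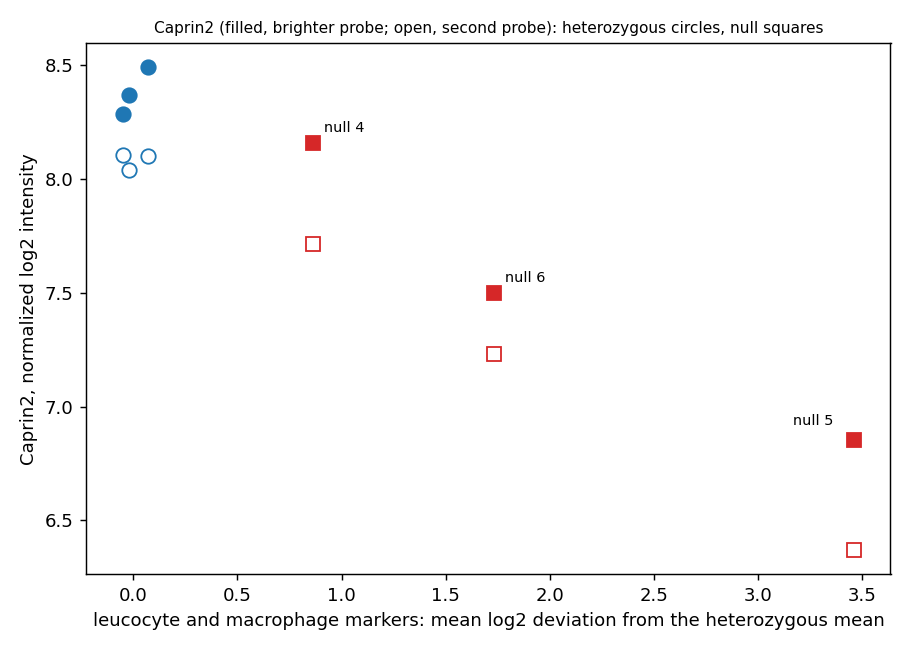
Log2 intensity of Caprin2 (vertical axis, filled symbols for the brighter and open for the second probe) against the mean deviation of 10 leucocyte and macrophage markers from their heterozygous mean (horizontal axis, log2) on each array, circles heterozygous and squares null. Null arrays 4, 6 and 5 lie at deviations of 0.86, 1.73 and 3.46 and at Caprin2 levels of 8.16, 7.50 and 6.86. As 5 of the 10 markers were detected on no heterozygous array, the size of these deviations is uncertain.

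The other stress granule genes were those of the nucleators and their partners. G3bp1 and G3bp2, the proteins around which stress granules assemble, differed by 0.33 and 0.24 on the brightest probe of each. The second G3bp1 probe gave 0.015, and the other measured G3bp2 probes gave 0.087 and -0.029. Caprin1, which binds both proteins, differed by 0.36, with 0.33 on its second probe. That second Caprin1 probe read 9.52, 9.64 and 9.29 on the heterozygous and 9.88, 9.78 and 9.79 on the null arrays, without overlap (adjusted p = 0.707), whereas the values of the first probe did overlap. On the authors' own values with the replicate number as a block, Caprin1 had the lowest adjusted p among the brightest probes of the measured genes. It was 0.21, while the second Caprin2 probe had 0.191 in that fit. Tia1, an RNA-binding protein that drives granule assembly through its prion-like domain, differed by 0.45 but was above background on just 1 heterozygous array against all 3 null arrays, so its size is uncertain. Its relative Tial1 differed by -0.26, -0.35 and 0.10 on 3 probes, which did not share a sign. Of the 6 stress granule genes, 4 were higher and 2 lower (median 0.28), also relative to the median of all probes after median scaling, and 0 passed, with the lowest adjusted p that of Caprin2.

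Of the 4 measured decapping genes 2 were higher and 2 lower, after median scaling 1 lay above and 3 below the median of all probes, and 0 passed. Dcp2, the enzyme that removes the cap, was above background on 1 heterozygous array and 2 null arrays and differed by -0.06, and Edc4, the scaffold of the decapping complex, differed by 0.05. Dcp1b, an activator of Dcp2, read 7.35, 7.27 and 7.54 on the heterozygous and 7.42, 6.82 and 7.02 on the null arrays. Null array 4 lay among the heterozygous values, and the other 2 null arrays lay below them. The Dcp1b difference was -0.30 ± 0.23 (SE, 95% interval -0.81 to 0.21, limma adjusted p = 0.777), with -0.17 on its second probe. Leaving out null array 4 gave -0.46 and leaving out null array 5 gave -0.17, and the 0.12 after median scaling lay below the median of all probes. Dcp1a, the other activator, gave 0.20 and 0.18 on 2 probes. Its first probe read 5.54, 4.34 and 5.80 on the heterozygous arrays, with array 2 far below the others, and 5.63, 5.11 and 5.53 on the null arrays.

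Of the genes of deadenylation and digestion from the 5′ end, Cnot7 and Lsm1 were measured. Xrn1, which carries out the digestion, had no measured probe. Cnot7, a catalytic subunit of the CCR4-NOT deadenylase, differed by -0.03 ± 0.22 (adjusted p = 0.985). Lsm1, a subunit of the ring that binds shortened tails and promotes decapping, read 8.22, 7.96 and 8.84 on the heterozygous and 8.37, 8.11 and 8.98 on the null arrays. The values overlapped between the groups, and the difference was 0.14 ± 0.31 (95% interval -0.54 to 0.83, adjusted p = 0.936). It changed sign, to -0.05 and -0.10, without heterozygous array 2 or null array 6, and it was 0.39 and 0.33 without heterozygous array 3 or null array 5. Between samples with the same replicate number, in the authors' series matrix values, the Lsm1 differences were 0.125, 0.127 and 0.125 (0.13 with the replicate block, 95% interval -0.11 to 0.36, adjusted p = 0.602). The second Lsm1 probe differed by 0.16.

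Among the translational repressors of processing bodies, Ddx6 was lower on all 4 of its measured probes with quantile normalization. Ddx6 is the RNA helicase that links repressed mRNAs to the decapping machinery and is needed for processing bodies to form. Its brightest probe read 8.39, 8.59 and 8.63 on the heterozygous and 8.12, 8.20 and 8.38 on the null arrays. The groups did not overlap on that probe, although heterozygous array 1 and null array 6 nearly touched. The difference of -0.30 ± 0.20 (SE, 95% interval -0.76 to 0.15, limma adjusted p = 0.738) did not pass. After median scaling it was 0.14, which lay below the median of all probes, at 0.28. The other probes gave -0.74, -0.38 and -0.13 (adjusted p from 0.617 to 0.935), each with overlapping groups, and probes of 1 gene share the same RNA and are not separate evidence.

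The other measured repressors did not share 1 direction. Lsm14a and Lsm14b, scaffold proteins of processing bodies, differed by 0.27 and -0.15, and all 4 Lsm14b probes were lower (-0.25 to -0.15). Eif4enif1, which carries the cap-binding factor eIF4E into these bodies, differed by 0.10 and 0.12 on 2 probes, and Pum2, a repressor that binds motifs in 3′ ends of mRNAs, by 0.20. Of these 5 repressors 3 were higher and 2 lower (median 0.10), also relative to the median of all probes after median scaling, and 0 passed.

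Celf1 and Rbm24 are the RNA-binding proteins of the set best known in the lens, since loss of either disturbs eye or lens development in mouse and zebrafish. Celf1, which controls splicing, decay and translation of lens mRNAs, had 4 measured probes. The brightest read 8.66, 8.83 and 9.01 on the heterozygous and 8.57, 9.12 and 8.74 on the null arrays, and the groups overlapped throughout. Its difference was -0.03 ± 0.23 (SE, 95% interval -0.54 to 0.49, limma adjusted p = 0.985), and the other 3 probes gave -0.06, 0.04 and -0.04. After median scaling it was 0.40 (adjusted p = 0.748), where the median of all probes was 0.28. With quantile normalization, the 4 Celf1 intervals all lay between -0.55 and 0.55.

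Rbm24, which promotes polyadenylation of crystallin mRNAs in zebrafish lens, read 6.09, 6.97 and 6.22 on the heterozygous and 5.91, 6.59 and 5.86 on the null arrays. In each group 1 array stood above the other 2, heterozygous array 2 and null array 5. The Rbm24 difference was -0.31 ± 0.30 (95% interval -0.99 to 0.38, adjusted p = 0.834). It was -0.04 without heterozygous array 2 and -0.54 without null array 5, and the 0.08 after median scaling lay below the median of all probes. With the replicate block on the series matrix values it was -0.19 (95% interval -0.43 to 0.06, limma adjusted p = 0.457). Rbm24 was lower in null lenses in 3 of 3 pairs of same-numbered samples, where 38.5% of all probes had 1 sign in all 3 pairs.

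Ybx1, a cold shock protein that packages mRNA and limits its decay, was higher on all 3 null arrays. It read 13.65, 13.27 and 13.70 on the heterozygous and 13.88, 14.03 and 13.99 on the null arrays. The groups did not overlap, and heterozygous array 2 was the lowest. The difference of 0.43 ± 0.21 (SE, 95% interval -0.05 to 0.90, limma adjusted p = 0.614) did not pass. Read against 0, it lay between 0.26 and 0.51 over the alternatives, with an adjusted p from 0.26 to 0.855. After median scaling it was 0.44, where the median of all probes was 0.28, so it stood less far above all probes there. Of its other probes, 1 was detected on no array and 1 on 2 null arrays only. Ybx1 lies on chromosome 4, as does Tdrd7, and the mice were of a mixed strain background. The part of strain alleles near Tdrd7 in this difference was not tested.

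**Figure D3:**
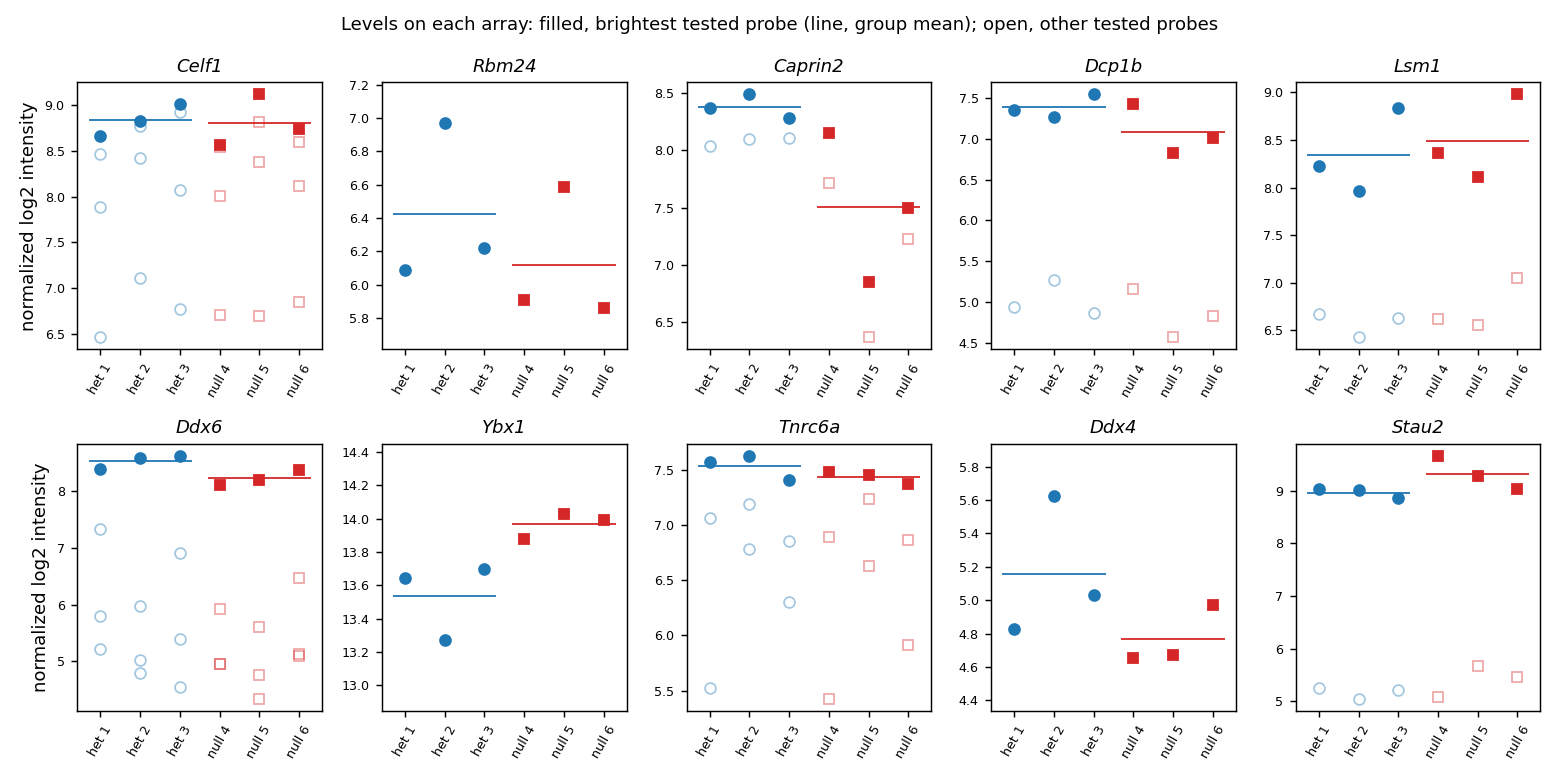
Normalized log2 intensity (vertical axis, separate scale for each gene) of 10 genes on each array (horizontal axis), circles heterozygous and squares null, filled for the brightest measured probe with its group mean as a line and open for the other measured probes. Filled symbols do not overlap between the groups for Caprin2, Ddx6, Ybx1 and Stau2, and do for the other 6 genes.

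Pabpc1, Pabpc4 and Elavl1 act on poly(A) tails and AU-rich elements. Pabpc1, the main cytoplasmic poly(A)-binding protein, read 12.62, 11.63 and 12.35 on the heterozygous and 12.53, 11.09 and 12.03 on the null arrays. Heterozygous array 2 and null array 5 were the lowest of their groups by a wide margin, and the groups overlapped. Pabpc1 differed by -0.32 ± 0.39, -0.57 ± 0.26 and -0.28 ± 0.36 on its 3 probes (adjusted p = 0.872, 0.577 and 0.88). Pabpc4, a second poly(A)-binding protein, differed by -0.05 and -0.27 (adjusted p = 0.975 and 0.772), the latter without overlap. Elavl1, which binds AU-rich elements and stabilises their mRNAs, differed by 0.07 ± 0.29 (adjusted p = 0.971). Of the 6 stability and poly(A) genes 2 were higher and 4 lower (median -0.04), after median scaling 4 lay above and 2 below the median of all probes, and 0 passed.

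In microRNA silencing, Ago2, the Argonaute that can cut its targets, differed by -0.12 and 0.06 on 2 probes. Tnrc6a, the scaffold that joins Argonaute to the deadenylases, read 7.57, 7.63 and 7.41 on the heterozygous and 7.48, 7.45 and 7.37 on the null arrays. The 6 values lay close together and overlapped, and the difference was -0.10 ± 0.20 (SE, 95% interval -0.54 to 0.34, limma adjusted p = 0.928). Its other probes gave -0.04 and -0.21. Neither passed, and after median scaling Tnrc6a, at 0.31, lay above the median of all probes and Ago2 below it.

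Germ granule genes were near the limit of detection in the lens. Ddx4, the helicase of germ cells known as Vasa, was above background on 3 heterozygous arrays and 2 null arrays by 1 of its 3 probes, which read 4.83, 5.62 and 5.03 and then 4.65, 4.67 and 4.97. Heterozygous array 2 stood above the rest, and null array 6 lay between heterozygous arrays 1 and 3. The Ddx4 difference was -0.39 ± 0.26 (95% interval -0.97 to 0.18, adjusted p = 0.731), and it was -0.18 without heterozygous array 2, -0.17 without background correction and -0.11 without both that array and null array 5. Piwil1, a germline Argonaute of the piRNA pathway, read 4.88, 6.00 and 5.47 on the heterozygous and 5.11, 5.21 and 4.94 on the null arrays, a difference of -0.36 ± 0.29 (adjusted p = 0.792). Of 8 germ cell markers 0 were measured, and Sycp1, Sycp3, Dppa3, Zp3 and Zpbp were detected on no array.

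Transcripts of the Staufen proteins, double-stranded RNA-binding proteins of transport granules, lay higher on the 3 null arrays by the brightest probe of each gene, and neither passed. Stau1, whose granules lie near those of Tdrd7, read 7.43, 7.30 and 7.48 on the heterozygous and 7.54, 7.53 and 7.58 on the null arrays, a small difference of 0.15 ± 0.19 (SE, 95% interval -0.28 to 0.58, limma adjusted p = 0.88) with no overlap. Stau2 read 9.03, 9.02 and 8.85 on the heterozygous and 9.66, 9.27 and 9.04 on the null arrays. Its groups also did not overlap, but null array 6 lay only just above heterozygous array 1. The Stau2 difference was 0.36 ± 0.23 (95% interval -0.15 to 0.87, adjusted p = 0.729) and 0.19 without null array 4, and the second probe gave 0.23 with overlapping groups.

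The FMRP relatives differed from each other in spread. Fxr1, which is strongly expressed in muscle and binds ribosomes, differed by 0.31 ± 0.22 (adjusted p = 0.758). Fxr2 read 8.58, 7.34 and 8.13 on the heterozygous and 8.44, 7.20 and 8.31 on the null arrays, with the middle array of each group far below the others. Its difference was -0.03 ± 0.40 (adjusted p = 0.989), and its second probe gave 0.20. Of the 4 measured transport and FMRP family genes 3 were higher and 1 lower (median 0.23), all 4 lay above the median of all probes after median scaling, and 0 passed.

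Across the set, the groups did not overlap for 5 of 31 genes, Ybx1, Stau1 and Stau2 higher and Ddx6 and Caprin2 lower, which is 16.1% against 15.3% of all probes tested (7.43% higher and 7.86% lower). After median scaling 1 gene of the 31 had no overlap, against 10.1% of all probes. Of the 19 genes with several measured probes, 5 had probes of opposite sign, namely G3bp2, Tial1, Celf1, Ago2 and Fxr2, and the differences of these 5 ran from -0.35 to 0.24.

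A number of granule and decay genes were lowest on the same arrays within the groups. Heterozygous array 2 was the lowest heterozygous array for 19 of the 31 genes, against 42.9% of all probes, and null array 5 the lowest null array for 15, against 40.4%. Both held for 14 genes, against 22.7% of all probes, and these were Dcp1a, Dcp1b, Lsm1, Cnot7, Lsm14b, G3bp2, Tial1, Caprin1, Pabpc1, Pabpc4, Elavl1, Stau1, Fxr1 and Fxr2. The columns of the series matrix values carry the labels' replicate numbers. There the same 14 genes were lowest on replicate 2 of both groups, against 22.7% of all probes. Those values are the same measurements on another scale, so this repeats the count and is not a second observation. Between same-numbered samples 18 of the 31 genes had 1 sign in all 3 pairs, 9 higher and 9 lower, against 38.5% of all probes. The opposite, highest on both, held for 3 genes, Rbm24, Ago2 and Piwil1, against 20.0% of all probes. These counts describe 6 arrays and carry no test, and members with overlapping functions are not independent of each other.

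Part of the lens epithelium markers were also lowest on these arrays. Of 8 such markers 7 were measured, and their summed linear level was 20540, 8786 and 19740 on arrays 1 to 3 (heterozygous) and 17220, 10760 and 18480 on arrays 4 to 6 (null). Gja1, a gap junction protein of the epithelium, read 11.67, 6.70 and 11.33 on the heterozygous and 10.72, 7.87 and 11.09 on the null arrays, and 4 of the 7 markers were lowest on both arrays. Among the others, Foxe3 was highest of the null arrays on array 5, Slc38a3 was lowest of the heterozygous arrays on array 3, and Pax6 was lowest of the null arrays on array 4. Npnt was detected nowhere. The part of the epithelial markers in the spread of Fxr2, Pabpc1, Dcp1a and the other genes lowest on both arrays was not tested. Without heterozygous array 2 and null array 5, 0 of the 31 genes passed, the lowest adjusted p was 0.50 for Fxr1, and 111 of all probes tested (0.745%) were called in place of 26.

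**Figure D4:**
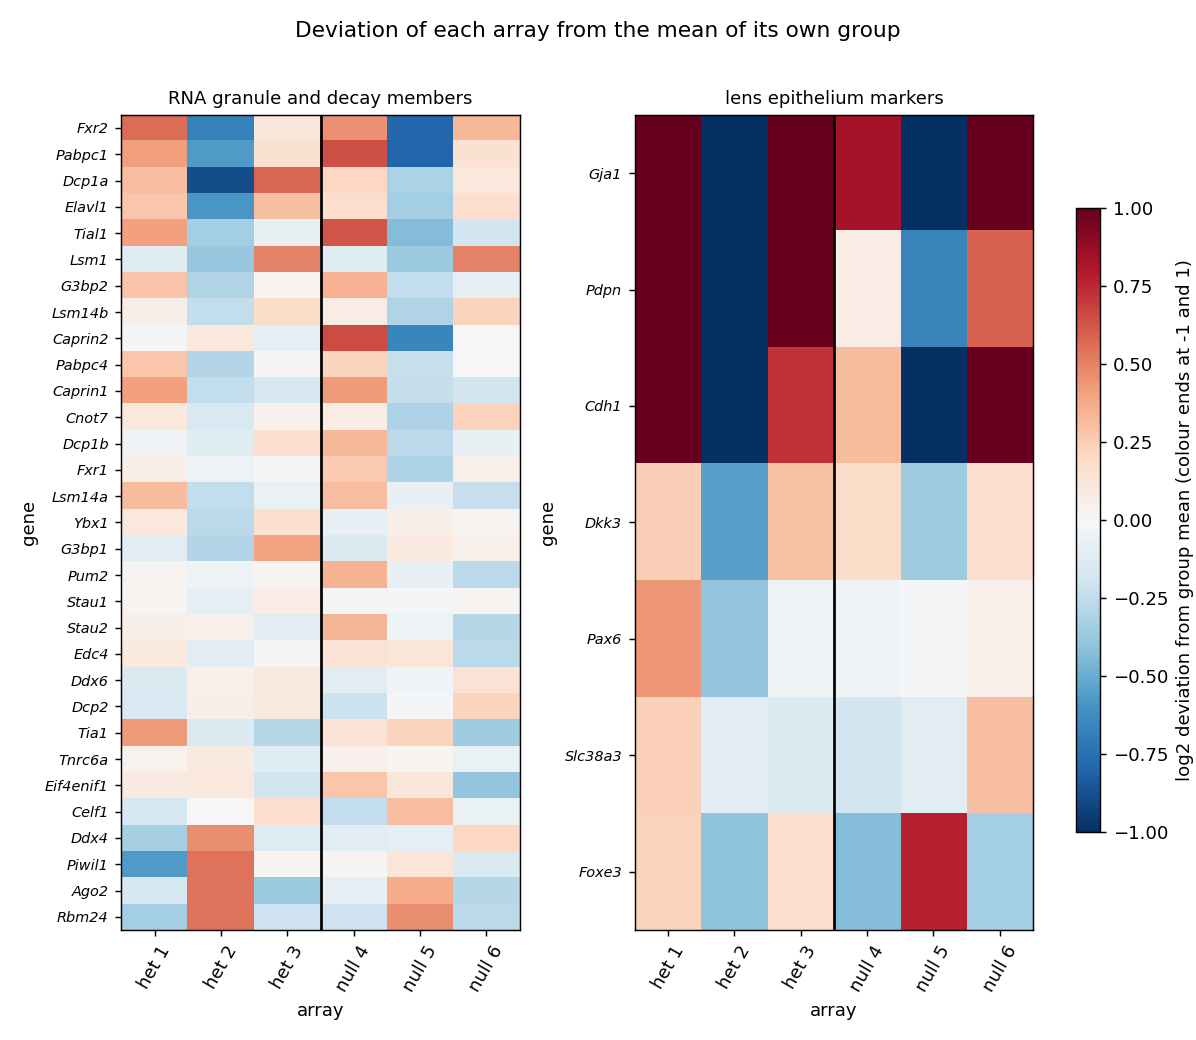
Deviation of each array from the mean of its own group (colour, log2, red above and blue below, ending at -1 and 1) for the 31 measured granule and decay genes and 7 lens epithelium markers (rows), by array (columns), with a black line between heterozygous and null arrays. Fxr2, Pabpc1 and the other genes at the top are lowest on heterozygous array 2 and null array 5, as are Gja1 and Cdh1, while Rbm24, Ago2 and Piwil1 at the bottom are highest there.

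Markers of adjoining tissue also differed between arrays. Retinal markers (9 of 12 measured) summed to 345.4, 1416 and 1118 on the heterozygous and to 1700, 1196 and 1341 on the null arrays, with Gngt1 and Opn1sw detected nowhere. Those of iris, ciliary body and pigment cells (4 of 9 measured, Tyr, Mlana, Rlbp1 and Opn5 detected nowhere) ran from 134.5 to 812.5 on heterozygous and from 227.2 to 300.4 on null arrays, and those of muscle and endothelium (4 of 9 measured) from 122.6 to 180.3 and from 126 to 144.5. Their part in the levels of the granule and decay genes was not tested.

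No gene of the wider machinery of mRNA decay and RNA granules passed either. Of 120 further genes in 8 lists, 86 were measured, 41 were higher and 45 lower (median -0.01), after median scaling 51 lay above and 35 below the median of all probes, 0 passed in limma, 3 were at an unadjusted p under 0.05, and the groups did not overlap for 7, or 8.14%, against 15.3% of all probes. Celf2, a relative of Celf1 that regulates splicing and mRNA stability, had the smallest p among them. It read 7.88, 8.17 and 8.35 on the heterozygous and 7.23, 7.33 and 6.96 on the null arrays, and its second probe read 6.51, 6.23 and 6.70 and then 6.06, 5.42 and 5.89. Neither probe overlapped between the groups. The Celf2 differences were -0.96 ± 0.22 (SE, 95% interval -1.46 to -0.46, limma adjusted p = 0.17) and -0.69 ± 0.24 (adjusted p = 0.459), and neither passed. Over the alternatives the brighter probe stayed between -1.09 and -0.54 with an adjusted p from 0.0194 to 0.724, and it passed in 1 of them, the fit with array weights. The -0.54 was that after median scaling, where the median of all probes was 0.28.

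In the same list of AU-rich element and other stability factors (8 higher and 6 lower of 14), Khsrp, a decay factor for AU-rich mRNAs, differed by 0.72 (adjusted p = 0.556). Cpeb3, which represses translation through elements in the 3′ end of mRNAs, read 8.82, 9.00 and 9.01 on the heterozygous and 8.39, 8.21 and 8.54 on the null arrays. The Cpeb3 groups did not overlap, and the difference of -0.56 ± 0.20 did not pass (adjusted p = 0.464). Its relative Cpeb1 differed by -0.43 (adjusted p = 0.65), and the list of other repressors and transport factors held 4 higher and 4 lower of 8.

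Of the deadenylase list (5 higher and 8 lower of 13), Pan2, the catalytic partner of Pan3, differed by 0.60 and the ubiquitin ligase Cnot4 by -0.59 (adjusted p = 0.705 and 0.711), while the other measured probes of both lay between 0.06 and 0.15. In the decapping and LSM list (6 and 4 of 10), Lsm2, a subunit of the LSM ring, differed by 0.41 and Dcps, which degrades the freed cap, by 0.38. The exosome and SKI list was split evenly, 7 and 7 of 14, with Pelo, a rescue factor for stalled ribosomes, at -0.41 (adjusted p = 0.625, and 0.04 after median scaling, below the median of all probes) and Wdr61, a SKI complex subunit, at 0.33. Among nonsense-mediated decay genes (2 and 5 of 7), Rbm8a, a core component of the exon junction complex, differed by -0.62 and -0.61 on 2 probes (adjusted p = 0.577 and 0.526), and Smg8 by 0.19. In the other stress granule list (5 and 4 of 9), Eif2ak2, the kinase activated by double-stranded RNA, differed by -0.39 and the helicase Ddx1 by 0.28. Of the other microRNA genes (4 and 7 of 11), Dicer1, which cuts precursors to mature microRNAs, differed by 0.30. Its second probe gave -0.025. Dgcr8, a subunit of the nuclear processor, differed by 0.21. Dgcr8 and Smg8 were each above background on 1 heterozygous array and 2 null arrays, so the sizes of their differences are uncertain.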

How the data were processed

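Per the file headers, the deposited raw table holds 1 linear intensity and 1 detection p-value per probe and array, and the authors' series matrix holds a rescaled intensity (each column a straight-line rescaling of 1 raw column, direction that of brightness, method not given in the sources used here). Raw columns name the group only, so arrays were assigned by group. Intensities were processed with neqc in limma 3.58.1 (R 4.3.3; normexp with control moments inferred from the detection p-values, offset 16, quantile normalization, log2), which pulls differences of dim probes towards 0. Two-sided limma tests covered the 14902 probes detected on at least 3 arrays, with Benjamini-Hochberg adjustment at 0.05, and the code was tested on simulated data.

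Of 45281 probes, 34885 had 1 annotated gene, 18 had several and were not used by name, and 10378 had none. A gene was taken by its brightest measured probe. Named in full were Celf1, Rbm24, Caprin2, members at an unadjusted p under 0.05 and the smallest p of each role, and up to 2 genes per further list. The members and lists were chosen with earlier results of these data known. In the series matrix values, deviations from the group means correlated at 0.111, 0.373 and 0.585 between samples with the same replicate number. Between samples of different number they correlated at -0.454 to 0.157. Heterozygous replicate 1 correlated more with null replicate 3 (0.157) than with null replicate 1 (0.111). The labels give the numbers but not a pairing, which was taken from these same values in 1 alternative and is uncertain. The 15 alternatives changed background correction, offset, scaling, filter, source of values, block, array weights and arrays left out.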

Additional observations from a re-analysis of the deposited data

How the results depend on the processing

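The count of 0 measured granule and decay genes past the threshold held in every alternative run, and 148 of 159 recomputed differences of the genes given in full kept their direction. Part of the 159 could not change direction. The changes of filter refit the same values, and the replicate block left each difference as it was without the block. For a gene with 1 measured probe, the mean over its probes was the main value again. The count of probes called among all tested, 26 in the main setting, was 9 without background correction, 14 with an offset of 50, 3 after median scaling, 0 of 45281 without a filter (2759 at an unadjusted p under 0.05), 9 on the series matrix values without a block, 261 with array weights and 111 without heterozygous array 2 and null array 5. Leaving out 1 array gave from 2 (without null array 6) to 30 (without null array 4), with 8, 6 and 13 without heterozygous array 1, heterozygous array 3 and null array 5. With the replicate block on the series matrix values 35 probes were called, and the pairing changed no call of a granule or decay gene. The count of genes without overlap, 5 in the main setting, was 1 after median scaling and 8 without heterozygous array 2 and null array 5 (39.4% of all probes). It ran from 6 to 11 when 1 array was left out, where fewer arrays overlap less by construction (11 without heterozygous array 1 against 28.1% of all probes, 10 without null array 6 against 23.3%). The median difference of the 31 genes was 0.40 after median scaling, against 0.28 for all probes. Median scaling, which moved the median of all probes to 0.28, turned the sign against 0 of Rbm24 (0.078), Dcp1b (0.12) and Ddx6 (0.14), which stayed below the median of all probes, and of Celf1 (0.40) and Tnrc6a (0.31), which lay above it. Without single arrays Celf1 ran from -0.182 to 0.094 and Lsm1 from -0.10 to 0.391, so both changed sign, and Lsm1 was -0.07 with array weights. Why these values moved was not tested. Signal near background limits Dcp2, Tia1, Ddx4 and Piwil1, and Smg8 and Dgcr8 among the genes named from the further lists.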
